A study of Arabidopsis thaliana with 10 samples.

Results

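Histones and cyclins were followed through the response of *Arabidopsis* to wounding and to methyl jasmonate (MeJA), the volatile methyl ester of the wound hormone jasmonate. The members were all probe sets, controls left out, whose deposited description contains "histone H" or a word that starts with "cyclin", and they numbered 92 of 22746. Of these, 47 describe histones, 36 describe cyclins, and 9 describe proteins that act with cyclins, called cyclin partners here. The partners are 3 kinases like cyclin-dependent kinases (CDKs), 3 CDK inhibitors, 2 CDK regulatory subunits and 1 ubiquitin carrier.

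The plants were 21 days old, grown on MS medium, and either wild type (Col-0) or Ri17, which the labels give as an RNA interference line for *JAV1*. Each genotype had 1 Affymetrix ATH1 array for each of 5 conditions, which were untreated, MeJA (100 µM) at 1 h and at 4 h, and wounding at 30 min and at 60 min, 10 arrays in all. For wounding, forceps were used to crush 4 rosette leaves, with about 30% of each leaf damaged, and the labels give leaves as the tissue of all 10 arrays. For MeJA, the labels' protocol has whole seedlings treated and leaves collected, so only wounding was applied to leaves alone, and how MeJA was given is not stated. Ri17 is a single line, no array held plants given medium without MeJA, and the labels do not say whether plants were pooled or grown as separate cultures. *JAV1* itself had no named probe set and was not analysed here.

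Histones are the proteins around which DNA is wound. Pairs of H2A with H2B and of H3 with H4 build the nucleosome core, and the linker histone H1 binds where DNA enters and leaves it. In plants, as in animals, most core histone genes are transcribed together with DNA replication, while replacement variants such as H3.3 and H2A.Z are made throughout the cell cycle. Cyclins bind and activate CDKs. D-type cyclins act at entry into the cycle, A- and B-type cyclins at replication and mitosis, and C- and H-type cyclins belong to kinases of the transcription machinery. CDK inhibitors of the ICK or KRP family bind these complexes and slow the cycle. In a rosette leaf, few cells still divide.

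A probe set was tested if it was called Present on at least 2 arrays, which held for 68 members and for 15382 probe sets in all. That included 37 histones (4 of 5 H1, 13 of 13 H2A, 9 of 11 H2B, 6 of 13 H3 and 5 of 5 H4), 22 cyclins (3 of 3 A, 0 of 2 B, 3 of 3 C, 6 of 9 D, 1 of 1 H, and 9 of 18 with no letter in the description) and all 9 partners. The annotation lists 1 gene for 26 members, several for 12 and none for 54, among them every H2A, so those members are given by probe set. The 24 members left out include both B cyclins, the centromere variant *HTR12* and the pollen variant *MGH3*. *HTR12* read between 11.7 and 57.6 and was Absent on all 10 arrays.

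Effects of treatment are given on the log2 scale with the standard error that limma fitted, as the average over both genotypes, and p-values are adjusted over all 15382 probe sets. No array was repeated, so the error also takes in whatever the genotypes did differently, and p-values measure only the spread between these arrays. All 4 treatment effects share the same pair of untreated arrays. A call's dependence on single arrays is given as the number of 10 fits, each with 1 array left out (leave-one-out fits), in which it was lost, with the smallest difference among those. Present calls covered 56.8% to 60.9% of probe sets per array. Of 27 spiked poly-A controls, 17 separated the 4 MeJA arrays from the other 6, and the median difference over all 27 was 0.53, MeJA minus other. Of 18 hybridization controls, 6 separated them, and the median over all 18 was -0.38. Among tissue markers, the leaf gene *RCA*, for Rubisco activase, read between 17634 and 36668 on the 10 arrays. The shoot meristem genes *CLV3* and *UFO* and the stomatal genes *MUTE* and *SPCH* were not tested, since none was Present on 2 arrays. A further stomatal gene, *FAMA*, was Present on all 10 arrays and read between 130.2 and 292.0. Its highest value was in untreated Ri17, where untreated Col-0 read 147.5. *PYK10*, a root beta-glucosidase and the 1 root marker with a named probe set, read between 902 and 2458 on the 4 MeJA arrays and between 22.0 and 244 on the other 6. Its part, and that of what moved the poly-A and hybridization controls, in any MeJA effect was not tested.

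**Figure D1:**
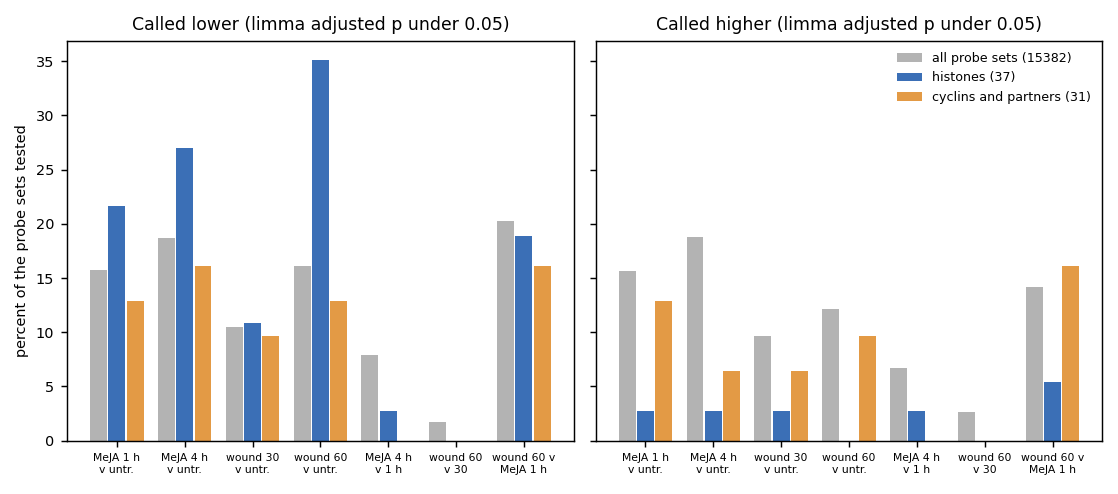
Percent of probe sets called lower (left) and higher (right) by limma at adjusted p under 0.05, for 7 contrasts, among all 15382 probe sets tested (grey), 37 histones (blue) and 31 cyclins and partners (orange). Histones reach 35.14% lower and 0% higher at 60 min after wounding, where all probe sets reach 16.08% and 12.14%.

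More histone probe sets fell than rose in each of the 4 treatment contrasts. After 1 h of MeJA, 8 of 37 histones fell and 1 rose, against a background of 15.8% of all probe sets lower and 15.7% higher. After 4 h, 10 fell and 1 rose, against 18.7% and 18.8%. At 30 min after wounding, 4 fell and 1 rose, against 10.5% and 9.63%, and at 60 min, 13 fell and 0 rose, against 16.1% and 12.1%. As shares, 21.6%, 27.0%, 10.8% and 35.1% of the histones fell, so that the share at 30 min was close to the background, and the share that rose, 2.7% or 0%, lay below it each time. No test of the list as a whole was made. In whole tissue, fewer cells of a type and less RNA per cell cannot be told apart.

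The median histone difference was -0.18 and -0.48 after 1 h and 4 h of MeJA and -0.51 and -0.47 at 30 and 60 min after wounding, where the median of all probe sets was 0.01, 0.00, -0.08 and -0.14. The last of these moved to -0.04 when arrays were centred on their medians, and then 9 histones fell and 1 rose at 60 min. Single arrays set much of these counts. Histones called numbered 2, 5 and 4 instead of 9 at 1 h of MeJA without the Col-0 MeJA 1 h, Ri17 untreated or Ri17 MeJA 1 h array. At 4 h they numbered 4, 3 and 2 instead of 11 without the Col-0 MeJA 4 h, Ri17 untreated or Ri17 MeJA 4 h array, and at 30 min 1 instead of 5 without its Ri17 array. At 60 min they numbered 2 instead of 13 without its Ri17 array, 4 without Ri17 untreated, 6 without its Col-0 array, and 8 without any 1 of the 4 MeJA arrays, and 4 with the MeJA arrays all left out.

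In all, 19 of the 37 histones fell in at least 1 of the 4 treatment contrasts and 3 rose in at least 1, with 1 of them doing both, while 16 passed the threshold in none. The count of histones that fell in all 4 was 1, in 3 of them 2, in 2 of them 9, and in 1 of them 7. These counts over the 4 contrasts were not made for all probe sets. They therefore have no background, and whether they are unusual cannot be told. Both untreated arrays lay above all 8 treated arrays for 10 of 37 histones, against 13% of all probe sets, and below all 8 for 0 histones, against 8.43%.

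**Figure D2:**
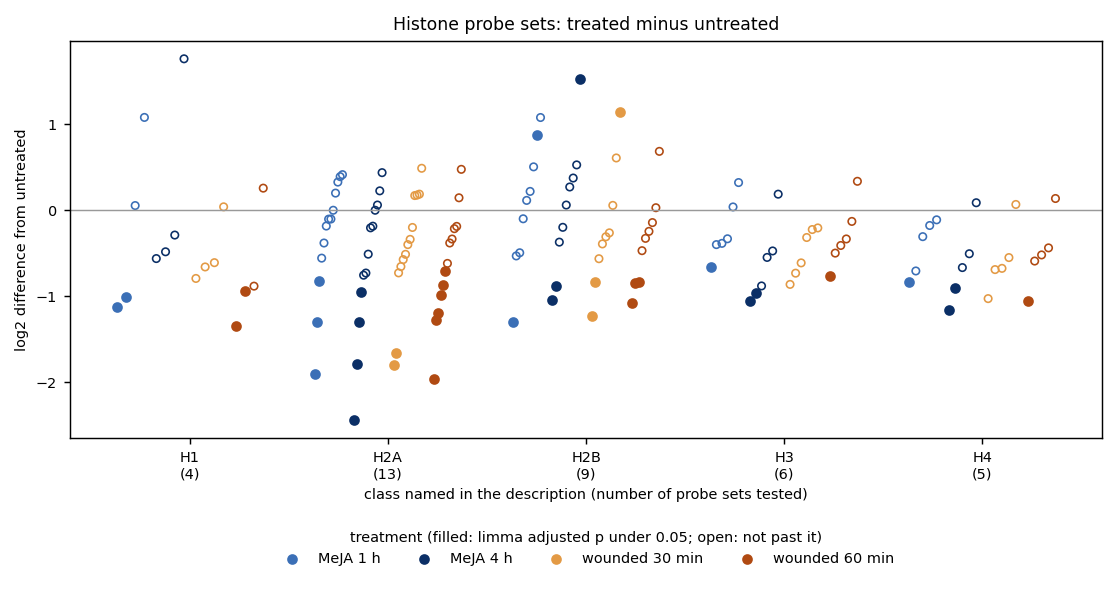
Log2 difference of each treatment from untreated (y axis) for each of the 37 histone probe sets tested, grouped by the histone named in the description (x axis), with filled points past the limma threshold and open points not past it. H2A holds the lowest points, down to -2.44, and the filled points above 0 are all H2B.

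Of the 13 H2A probe sets, 3, 4, 2 and 6 were lower and 0 higher after 1 h and 4 h of MeJA and 30 and 60 min after wounding. As shares, 23.1%, 30.8%, 15.4% and 46.2% were lower, against 15.8%, 18.7%, 10.5% and 16.1% of all probe sets. Over all probe sets 15.7%, 18.8%, 9.63% and 12.1% were higher. With 13 probe sets these shares rest on few members, and the differences were not tested. Signals are given below in the order untreated, MeJA 1 h, MeJA 4 h, wounded 30 min and wounded 60 min. The probe set 245750_at read 2494, 1242, 610, 709 and 473 in Col-0 and 1860, 1189, 634, 540 and 641 in Ri17. Both untreated arrays stood above every treated one, and it was the 1 histone that fell in all 4 contrasts. The differences were -0.83 ± 0.24 (adjusted p = 0.0391) and -1.79 ± 0.24 (adjusted p = 0.00148) after 1 h and 4 h of MeJA. They were -1.80 ± 0.24 (adjusted p = 0.00262) and -1.97 ± 0.24 (adjusted p = 0.00122) at 30 and 60 min after wounding, a 3.91-fold drop at the latter time. The last 3 calls were kept in every fit run, and the first was lost in 7 of 10 leave-one-out fits (smallest without Col-0 untreated, -0.61, adjusted p = 0.182).

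Another H2A, 251011_at, whose description likens it to a pea H2A, had the largest change of any histone under MeJA. It read 288, 84.4, 57.4, 163 and 135 in Col-0 and 307, 74.4, 52.1, 245 and 111 in Ri17. The 4 MeJA arrays were the lowest of the 10, the untreated arrays were the highest, and the wounded arrays lay between. It fell after 1 h (-1.91 ± 0.24, adjusted p = 0.00139) and after 4 h of MeJA (-2.44 ± 0.24, adjusted p = 0.000407), the latter 5.44-fold, and both calls were kept in every fit run. After wounding the differences were -0.57 ± 0.24 at 30 min, not past the threshold, and -1.28 ± 0.24 (adjusted p = 0.0076) at 60 min, which was lost in 1 of 10 leave-one-out fits (without Ri17 wounded 60 min, -1.09, adjusted p = 0.0576).

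Other H2A probe sets differed in which treatment they answered. 246735_at, similar to a *Brassica* H2A, read 782, 302, 459, 686 and 508 in Col-0 and 905, 389, 560, 507 and 418 in Ri17. Its lowest arrays were those at 1 h of MeJA, where it fell (-1.30 ± 0.25, adjusted p = 0.00744), and it also fell at 60 min after wounding (-0.87 ± 0.25, adjusted p = 0.037). The first of these calls was lost in 1 of 10 leave-one-out fits (without Col-0 MeJA 1 h, -1.09, adjusted p = 0.0715), and the second was lost in 8 of 10 leave-one-out fits (smallest without Ri17 wounded 60 min, -0.67, adjusted p = 0.196). 248175_at read 688, 520, 219, 254 and 315 in Col-0 and 506, 519, 264, 138 and 469 in Ri17, with no drop at 1 h of MeJA in Ri17 and the lowest arrays at 4 h of MeJA and 30 min after wounding. It fell (-1.29 ± 0.34, adjusted p = 0.0228) at 4 h of MeJA and (-1.66 ± 0.34, adjusted p = 0.0155) at 30 min. Those calls were lost in 4 and 2 of 10 leave-one-out fits, with smallest differences of -1.07 (adjusted p = 0.156) without Col-0 MeJA 4 h and -1.16 (0.103) without Ri17 wounded 30 min.

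At 60 min after wounding, 3 further H2A probe sets fell, and none of them passed the threshold under MeJA. 253920_at read 831, 730, 609, 880 and 358 in Col-0 and 857, 846, 410, 506 and 381 in Ri17, and fell (-1.19 ± 0.28, adjusted p = 0.0192). Its 60 min arrays were the lowest of the 10. 264651_at fell (-0.99 ± 0.27, adjusted p = 0.0335) and 264188_at (-0.71 ± 0.19, adjusted p = 0.0281). The 3 calls were lost in 3, 8 and 4 of 10 fits that left out 1 array, with the smallest differences -1.01 (adjusted p = 0.105), -0.77 (0.169) and -0.58 (0.147), and all were lost with the MeJA arrays left out. Of the treatments, 247651_at fell under 4 h of MeJA alone (-0.95 ± 0.29, adjusted p = 0.0396), a call lost in 7 of 10 leave-one-out fits (smallest without Ri17 untreated, -0.50, adjusted p = 0.191).

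The 2 H2A probe sets described as the variant H2A.F/Z, the replacement form known in *Arabidopsis* as H2A.Z, passed the threshold in no contrast. 251846_at read 190, 190, 211, 399 and 171 in Col-0 and 296, 174, 200, 178 and 193 in Ri17, with all arrays between 171 and 399, and differences from -0.38 to 0.17. 254717_at lay at or near the floor of 37.7 on nearly every array and was Present on 2. The H2A probe set with the highest mean level, 260154_at, read between 2006 and 3768, and its differences of 0.20 ± 0.19, 0.44 ± 0.19, 0.19 ± 0.19 and -0.19 ± 0.19 were not past the threshold.

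**Figure D3:**
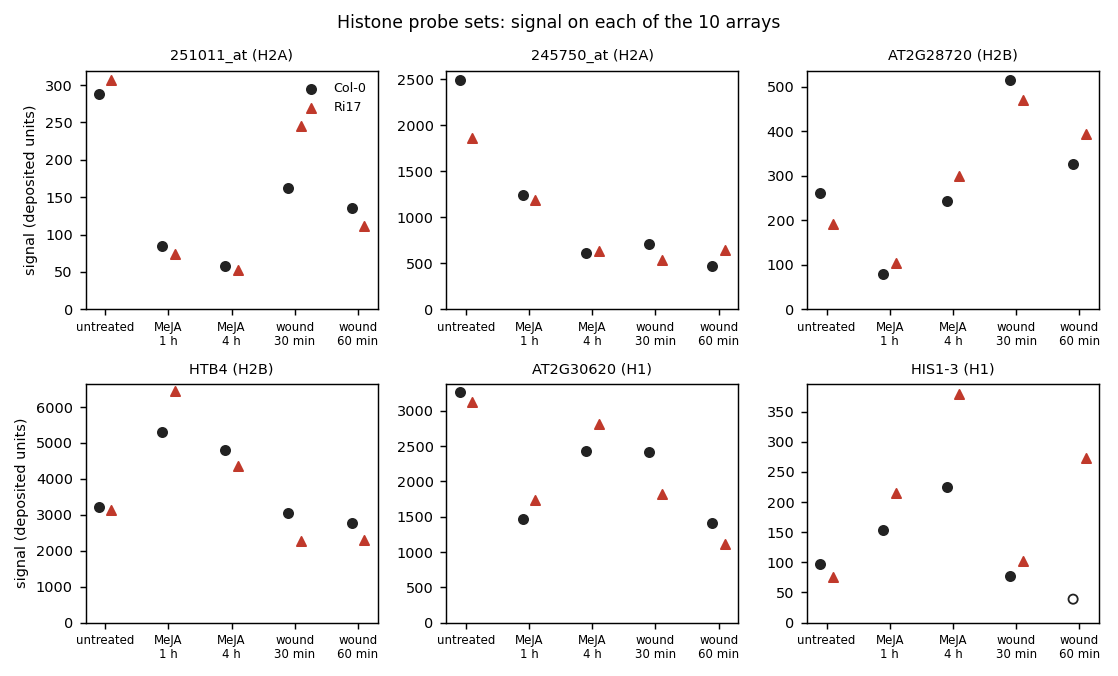
Deposited signal (y axis, from 0) of 6 histone probe sets on each of the 10 arrays, by condition (x axis), with black circles for Col-0, red triangles for Ri17 and open symbols where the call was not Present. 245750_at and 251011_at are highest on the untreated arrays, AT2G28720 is lowest at 1 h of MeJA and highest at 30 min after wounding, *HTB4* is highest under MeJA, and *HIS1-3* differs between the genotypes at 60 min.

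H2B, the partner of H2A in the nucleosome, held every histone that rose. In the order used for H2A, 1, 1, 1 and 0 of the 9 probe sets rose and 1, 2, 2 and 3 fell. As shares, 11.1%, 11.1%, 11.1% and 0% rose, against 15.7%, 18.8%, 9.63% and 12.1% of all probe sets. The share that rose was thus near the background or below it each time. The shares that fell were 11.1%, 22.2%, 22.2% and 33.3%, against 15.8%, 18.7%, 10.5% and 16.1%. AT2G28720 read 260, 79.4, 242, 514 and 326 in Col-0 and 191, 103, 298, 469 and 394 in Ri17. Its lowest arrays were both those at 1 h of MeJA and its highest both those at 30 min after wounding, and the genotypes ran alike. It fell (-1.30 ± 0.24, adjusted p = 0.00701) at 1 h of MeJA, stood at 0.27 ± 0.24 at 4 h, rose by 1.14 ± 0.24 (adjusted p = 0.0172) at 30 min after wounding and stood at 0.69 ± 0.24 at 60 min. The fall was lost in 1 of 10 leave-one-out fits (without Col-0 MeJA 1 h, -1.11, adjusted p = 0.0682), and the rise was lost in 3 of 10 leave-one-out fits (smallest without Ri17 untreated, 0.81, adjusted p = 0.0682). AT2G28720 was the 1 histone called in opposite directions under MeJA and wounding.

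*HTB4* read 3222, 5293, 4801, 3060 and 2774 in Col-0 and 3120, 6435, 4352, 2282 and 2303 in Ri17. Its 4 MeJA arrays were the highest of the 10 and the wounded arrays lay below the untreated ones. It rose by 0.88 ± 0.21 (adjusted p = 0.0179) at 1 h of MeJA, a call lost in 3 of 10 leave-one-out fits (smallest without Ri17 MeJA 1 h, 0.63, adjusted p = 0.137), while 0.53 ± 0.21 at 4 h and the wound differences of -0.26 ± 0.21 and -0.33 ± 0.21 were not past the threshold. AT3G09480, a low-level H2B, read 69.7, 107, 144, 50.5 and 25.8 in Col-0 and 41.9, 122, 168, 20.8 and 63.5 in Ri17. It was highest at 4 h of MeJA in both genotypes, and rose there by 1.53 ± 0.35 (adjusted p = 0.0126), a call lost in 3 of 10 leave-one-out fits (smallest without Ri17 untreated, 1.07, adjusted p = 0.072) and also lost with a lower floor.

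The other H2B calls were falls. *HTB11* read 892, 593, 448, 609 and 441 in Col-0 and 1010, 765, 592, 468 and 454 in Ri17, with both untreated arrays the highest of the 10. It fell (-0.88 ± 0.23, adjusted p = 0.0211) at 4 h of MeJA (-0.83 ± 0.23, adjusted p = 0.0431) at 30 min and (-1.08 ± 0.23, adjusted p = 0.0119) at 60 min after wounding. *HTB1* read 374, 551, 480, 181 and 243 in Col-0 and 495, 454, 419, 184 and 240 in Ri17. Here MeJA arrays overlapped the untreated ones and all 4 wounded arrays lay below them, with falls at 30 min (-1.23 ± 0.21, adjusted p = 0.00694) and at 60 min (-0.83 ± 0.21, adjusted p = 0.0242). *HTB2* fell (-1.05 ± 0.25, adjusted p = 0.0147) at 4 h of MeJA and (-0.85 ± 0.25, adjusted p = 0.0404) at 60 min after wounding.

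Most of these falls depended on single arrays. Those of *HTB11* were lost in 4, 9 and 2 of 10 leave-one-out fits, with the smallest differences -0.71, -0.52 and -1.03 (adjusted p = 0.151, 0.234 and 0.0697). Those of *HTB1* were lost in 2 and 3, at -1.21 and -0.57 (0.0539 and 0.104), and those of *HTB2* in 2 and 9, at -0.73 and -0.53 (0.0715 and 0.187). The H2B probe sets 252561_at, AT2G37470 and AT3G53650 passed the threshold in no contrast.

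Among linker histones, AT1G06760 and AT2G30620 fell in the same 2 contrasts, and *HIS1-3* in none. AT2G30620 read 3275, 1461, 2430, 2415 and 1411 in Col-0 and 3122, 1740, 2820, 1818 and 1117 in Ri17. Both untreated arrays were the highest, and the arrays at 1 h of MeJA and at 60 min after wounding were the lowest. It fell (-1.004 ± 0.22, adjusted p = 0.0139) at 1 h of MeJA, stood at -0.29 ± 0.22 at 4 h and -0.61 ± 0.22 at 30 min after wounding, and fell (-1.35 ± 0.22, adjusted p = 0.00433) at 60 min. The 60 min call was kept in every fit run, and the MeJA call was lost in 3 of 10 leave-one-out fits (smallest without Col-0 MeJA 1 h, -0.80, adjusted p = 0.113).

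AT1G06760 read 1914, 681, 1010, 1004 and 800 in Col-0 and 1482, 878, 1438, 940 and 960 in Ri17, again highest on the untreated arrays, with Ri17 at 4 h of MeJA close below. It fell (-1.12 ± 0.25, adjusted p = 0.0129) at 1 h of MeJA and (-0.94 ± 0.25, adjusted p = 0.0272) at 60 min after wounding. The calls were lost in 3 and 3 of 10 leave-one-out fits, with smallest differences of -0.81 (adjusted p = 0.0659) without Col-0 untreated and -0.63 (0.121) without Col-0 untreated. *HIS1-3*, the linker variant known in *Arabidopsis* for its induction by drought, read 97.8, 154, 224, 76.9 and 38.8 in Col-0 and 75.6, 214, 379, 102 and 272 in Ri17. Its 4 MeJA arrays lay above both untreated arrays, and at 60 min after wounding the genotypes went opposite ways. None of its differences of 1.08 ± 0.65, 1.76 ± 0.65, 0.04 ± 0.65 and 0.26 ± 0.65 passed the threshold. The fourth H1 probe set tested, 262840_at, passed it in no contrast either.

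The annotation lists several shared genes for each H3 probe set tested, and which of these copies each probe set reads cannot be told from it. The 4 probe sets for the replication-linked form H3.1 list the same 5 genes, AT1G09200, AT3G27360, AT5G10390, AT5G10400 and AT5G65360. 250434_at read 674, 477, 390, 674 and 876 in Col-0 and 786, 444, 359, 576 and 964 in Ri17. The 4 MeJA arrays were the lowest and the arrays at 60 min after wounding the highest. It fell at 1 h (-0.66 ± 0.19, adjusted p = 0.0327) and at 4 h of MeJA (-0.96 ± 0.19, adjusted p = 0.0066) and stood at 0.34 ± 0.19 at 60 min. The calls were lost in 5 and 1 of 10 leave-one-out fits, with smallest differences of -0.51 (adjusted p = 0.12) without Ri17 untreated and -0.90 (0.0547) without Ri17 MeJA 4 h.

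The H3.1 probe sets differed from each other after wounding, and whether they read the same copies is not known. 247192_at read 1465, 1538, 1005, 1261 and 958 in Col-0 and 1705, 1713, 1161, 848 and 901 in Ri17 and fell (-0.77 ± 0.24, adjusted p = 0.0489) at 60 min, where both arrays of 250434_at read above its untreated arrays. That call was lost in 8 of 10 leave-one-out fits (smallest without Ri17 untreated, -0.62, adjusted p = 0.192) and was lost under both other scalings. 250433_at fell (-1.05 ± 0.26, adjusted p = 0.0177) at 4 h of MeJA, a call lost in 3 of 10 leave-one-out fits (smallest without Ri17 untreated, -0.71, adjusted p = 0.0885), and 257714_at passed the threshold in no contrast. All 4 had a negative difference at 4 h of MeJA, from -1.05 to -0.55.

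The replacement form H3.3 was read by 2 probe sets that list the same 3 genes, AT4G40030, AT4G40040 and AT5G10980, and neither passed the threshold in any contrast. 252824_at, with the highest mean level of all histone probe sets, read 9155, 8743, 7834, 9117 and 8283 in Col-0 and 12192, 7335, 7391, 9207 and 6752 in Ri17. The untreated Ri17 array was the highest of the 10 and the others overlapped. Its differences ran from -0.50 to -0.21, and those of 250397_at from -0.32 to 0.32.

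All 5 H4 probe sets list the same 8 genes, though which of them each reads cannot be told from that, and they also differed. 247692_s_at read 3653, 2661, 1993, 3379 and 2123 in Col-0 and 5310, 2738, 1961, 2205 and 2122 in Ri17, with both untreated arrays the highest. It fell (-1.16 ± 0.27, adjusted p = 0.0136) at 4 h of MeJA and (-1.05 ± 0.27, adjusted p = 0.0244) at 60 min after wounding, calls lost in 3 and 5 of 10 leave-one-out fits, with smallest differences of -0.81 (adjusted p = 0.0695) without Ri17 untreated and -0.71 (0.125) without Ri17 untreated. 251924_at fell at 1 h (-0.83 ± 0.23, adjusted p = 0.03) and at 4 h of MeJA (-0.90 ± 0.23, adjusted p = 0.0194), calls lost in 6 and 4 of 10 such fits at -0.75 (0.112) and -0.77 (0.135). By contrast 261408_s_at read between 878 and 1243 on the 10 arrays, with no difference beyond 0.14 on either side of 0. The other 2 H4 probe sets passed the threshold in no contrast.

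Between 1 h and 4 h of MeJA, 1 histone rose and 1 fell, against 6.69% of all probe sets higher and 7.93% lower. AT2G28720 rose by 1.57 ± 0.24 (adjusted p = 0.00891), from 79.4 and 103 at 1 h to 242 and 298 at 4 h. 245750_at went on falling (-0.97 ± 0.24, adjusted p = 0.0399). These calls were lost in 3 and 6 of 10 leave-one-out fits, with smallest differences of 1.38 (adjusted p = 0.0923) without Col-0 MeJA 1 h and -0.89 (0.22) without Col-0 MeJA 4 h. Between 30 and 60 min after wounding, limma called 0 histones and 0 cyclins or partners at adjusted p under 0.05, against 2.67% higher and 1.72% lower over all probe sets. At unadjusted p under 0.05 it called 6 of 37 histones and 3 of 31 cyclins or partners, beside 3265 of 15382 probe sets.

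Wounding and MeJA were set against each other at 60 min, a comparison that needs no untreated array, though the treatments differed in tissue handling as well. Of 37 histones, 2 were higher after wounding and 7 lower, against 14.2% and 20.3% of all probe sets. As shares, 5.4% were higher and 18.9% lower, so that the share lower was close to the background. With arrays centred on their medians, 2 and 6 were called, and the split over all probe sets turned from 2184 higher and 3120 lower to 2555 and 2254. AT2G28720 was higher after wounding by 1.98 ± 0.24 (adjusted p = 0.00145), 3.95-fold, and 250434_at by 1.0 ± 0.19 (adjusted p = 0.00695). The 7 lower were *HTB4* at -1.21 ± 0.21 (adjusted p = 0.00538), AT3G09480 at -1.22 or lower (adjusted p = 0.032), since its Col-0 array at 60 min lay under the floor, 245750_at at -1.14 ± 0.24 (adjusted p = 0.0117), 264188_at at -1.13 ± 0.19 (adjusted p = 0.0046), 253920_at at -1.09 ± 0.28 (adjusted p = 0.0242), *HTB1* at -1.05 ± 0.21 (adjusted p = 0.00915) and 247192_at at -0.81 ± 0.24 (adjusted p = 0.0362). Only the AT2G28720 call was kept in every fit with 1 array left out. Without the Col-0 MeJA 1 h array 4 histones were called and without the Ri17 one 2, instead of 9.

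**Figure D4:**
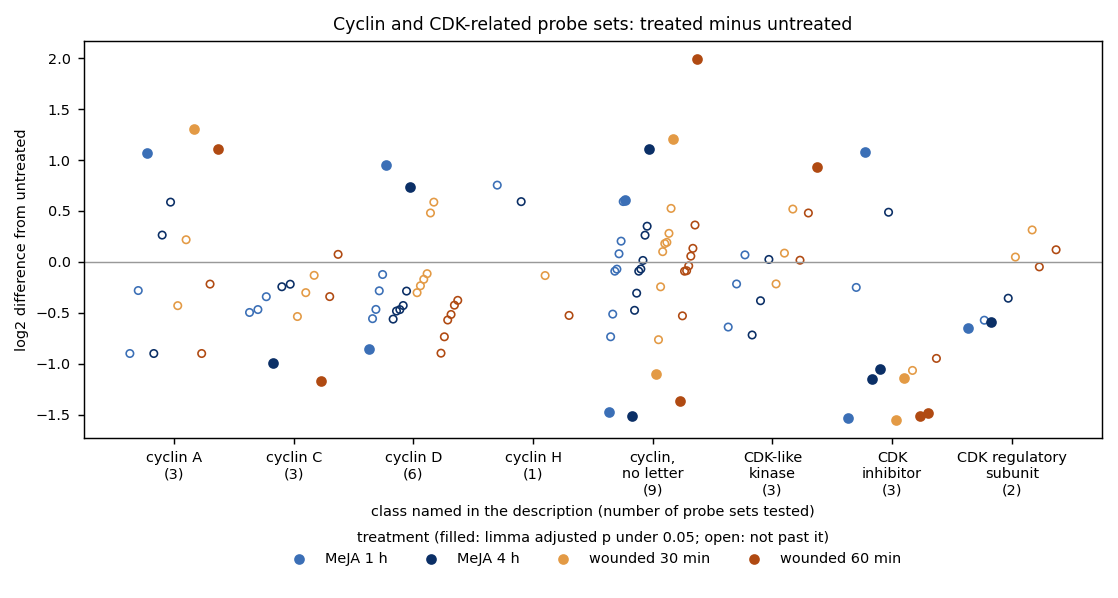
Log2 difference of each treatment from untreated (y axis) for 30 of the 31 cyclin and partner probe sets tested (the ubiquitin carrier is not drawn), by the class in the description (x axis), with filled points past the limma threshold and open points not past it. Differences with the untreated arrays Absent or under the floor are bounds. The highest point, 1.99, is the cyclin 262296_at at 60 min after wounding, and the lowest filled point, -1.55, is the CDK inhibitor 267135_at at 30 min.

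Few cyclins passed the threshold in any 1 contrast, and single members moved far. Of 22 cyclins, 3 and 2 rose after 1 h and 4 h of MeJA and 2 fell each time, while 2 rose at each wound time, with 1 lower at 30 min and 2 lower at 60 min. Beside the backgrounds given for the histones (15.7% and 15.8%, 18.8% and 18.7%, 9.63% and 10.5%, and 12.1% and 16.1%, higher and lower), the cyclins' shares ran from 4.55% to 13.6%, and the 9.09% that rose at 30 min was close to its background. The difference between the shares was not tested. With arrays centred on their medians, 3 rather than 4 cyclins and partners rose and 5 rather than 4 fell at 1 h of MeJA. The 16 cyclins that passed the threshold in none of the 4 contrasts include 4 of 6 D cyclins, 2 of 3 A and 2 of 3 C cyclins. That count has no background over all probe sets either. For cyclins and partners together, single arrays again set the counts. At 1 h of MeJA, 8 became 1 when Col-0 at that time was left out, 2 when Ri17 was, and 5 when untreated Ri17 was. At 4 h, 7 became 1 without its Col-0 array and 3 without the Ri17 array. At 30 min after wounding, 5 became 1 without its Ri17 array, 2 without the untreated Ri17 array, and 3 without either 60 min array, either MeJA 4 h array, the untreated Col-0 array or the Col-0 array of that time. At 60 min, 7 became 1 without its Ri17 array and 4 without the untreated Ri17 array.

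The clearest rise was that of 262296_at, described as similar to a human cyclin with no letter given. It read 96.6, 161, 222, 223 and 354 in Col-0 and 87.1, 122, 176, 202 and 377 in Ri17. The untreated arrays were the lowest of the 10 and the arrays at 60 min after wounding the highest, in both genotypes. It was the 1 member that rose in all 4 contrasts, with 0.61 ± 0.19 (adjusted p = 0.0441) and 1.11 ± 0.19 (adjusted p = 0.00364) after 1 h and 4 h of MeJA. After wounding the differences were 1.21 ± 0.19 (adjusted p = 0.00452) at 30 min and 1.99 ± 0.19 (adjusted p = 0.000339) at 60 min, a 3.98-fold rise. The last 3 calls were kept in every fit run, and the first was lost in 8 of 10 leave-one-out fits (smallest without Col-0 MeJA 1 h, 0.47, adjusted p = 0.241).

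The cyclin 260506_at, similar to a pea cyclin, fell in all 4 contrasts. It read 215, 84.3, 62.6, 135 and 83.6 in Col-0 and 187, 62.0, 79.3, 65.2 and 72.2 in Ri17, and both untreated arrays were above the other 8. The differences were -1.47 ± 0.31 (adjusted p = 0.0107) and -1.51 ± 0.31 (adjusted p = 0.00818) under MeJA and -1.10 ± 0.31 (adjusted p = 0.0451) and -1.37 ± 0.31 (adjusted p = 0.0153) after wounding. Its calls were lost in 3, 1, 7 and 4 of 10 leave-one-out fits, at -1.39, -1.10, -0.64 and -1.30 (adjusted p = 0.0837, 0.0681, 0.251 and 0.0819). Next to it in the numbering, 260505_at is described as similar to the same pea protein, read between 80.4 and 167 with both untreated arrays the highest, and had differences from -0.76 to -0.48 that did not pass.

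**Figure D5:**
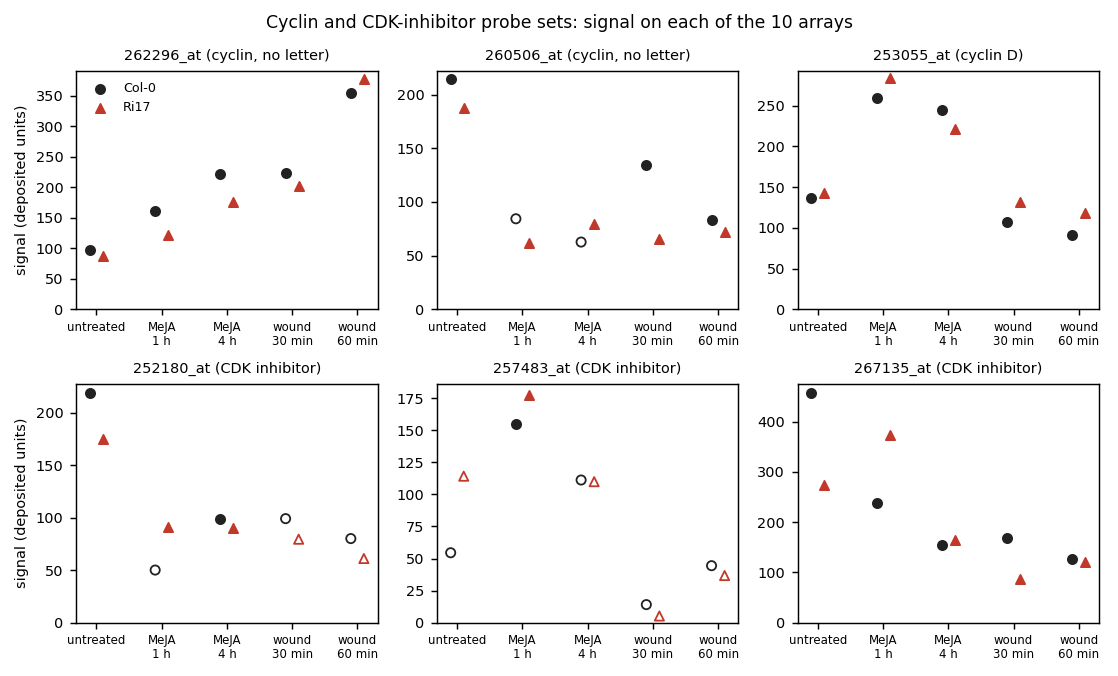
Deposited signal (y axis, from 0) of 3 cyclins and 3 CDK inhibitors on each of the 10 arrays, by condition (x axis), with black circles for Col-0, red triangles for Ri17 and open symbols where the call was not Present. 262296_at climbs to its highest level at 60 min after wounding, 260506_at and 252180_at are highest untreated, and 253055_at is highest under MeJA.

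Among D cyclins, which link growth signals to entry into the cycle, 2 of 6 changed, in opposite directions. At 1 h of MeJA 1 of the 6 rose and 1 fell, 16.7% each way. That is close to the 15.7% higher and 15.8% lower over all probe sets. 253055_at, similar to *Arabidopsis* cyclin delta-1, read 137, 260, 244, 108 and 91.6 in Col-0 and 143, 283, 221, 132 and 119 in Ri17. Its 4 MeJA arrays were the highest and all 4 wounded arrays lay below both untreated ones. It rose by 0.95 ± 0.19 (adjusted p = 0.00869) and 0.73 ± 0.19 (adjusted p = 0.0208) after 1 h and 4 h of MeJA, calls lost in 2 and 3 of 10 leave-one-out fits, with smallest differences of 0.94 (adjusted p = 0.0635) without Col-0 MeJA 1 h and 0.55 (0.155) without Col-0 MeJA 4 h. 264043_at read 645, 292, 460, 487 and 435 in Col-0 and 507, 341, 478, 442 and 368 in Ri17, lowest at 1 h of MeJA, where it fell (-0.86 ± 0.20, adjusted p = 0.0158), a call lost in 2 of 10 leave-one-out fits (smallest without Col-0 MeJA 1 h, -0.66, adjusted p = 0.123). The cyclin D3-like 247034_at, the D probe set with the highest mean level, read between 325 and 816 and had differences from -0.74 to -0.12, none past the threshold.

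The A2-type 246385_at read 38.3, 80.8, 77.9, 111 and 72.5 in Col-0 and 14.8, 78.6, 41.8, 79.8 and 93.0 in Ri17 and was Absent on both untreated arrays, so its rises are bounds. They were at least 1.07 at 1 h of MeJA (adjusted p = 0.032), at least 1.31 at 30 min (adjusted p = 0.022) and at least 1.11 at 60 min after wounding (adjusted p = 0.03). These calls were lost in 6, 4 and 7 of 10 leave-one-out fits, at 0.95, 1.15 and 0.75 (0.142, 0.145 and 0.181). The second A2-type, 245739_at, read 57.6, 37.3, 28.2, 68.5 and 6.8 in Col-0 and 85.9, 29.3, 28.0, 39.8 and 18.0 in Ri17. It was Present on the untreated arrays and at 30 min after wounding, Absent on the other 6, and called in no contrast. The B cyclins 261780_at and 262752_at, which act in mitosis, had 1 Present call between them over the 10 arrays and were not tested.

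C and H cyclins act with kinases of the transcription machinery. AT5G48640, like cyclin C, read 257, 160, 109, 134 and 105 in Col-0 and 172, 144, 103, 156 and 82.4 in Ri17, with both untreated arrays the highest. It fell (-0.99 ± 0.22, adjusted p = 0.0123) at 4 h of MeJA and (-1.17 ± 0.22, adjusted p = 0.00769) at 60 min after wounding, calls lost in 3 and 1 of 10 leave-one-out fits, with smallest differences of -0.74 (adjusted p = 0.0652) without Col-0 untreated and -1.07 (0.0548) without Ri17 wounded 60 min. Its neighbour AT5G48630, also like cyclin C, read between 390 and 588 and passed the threshold in no contrast. The cyclin H-like 246762_at read 104, 228, 187, 133 and 93.2 in Col-0 and 155, 202, 196, 101 and 83.5 in Ri17. All 4 MeJA arrays stood above all other arrays, but the differences of 0.75 ± 0.25 and 0.59 ± 0.25 from untreated did not pass the threshold.

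The partners of cyclins held 3 CDK inhibitors, and 2 of them fell. 252180_at, similar to ICK1, read 219, 50, 98.4, 99.0 and 80.0 in Col-0 and 174, 91.2, 90.2, 79.4 and 61.0 in Ri17. Both untreated arrays were above the other 8, and 4 treated arrays were Absent. It fell in all 4 contrasts, with -1.53 ± 0.32 (adjusted p = 0.0106) and -1.05 ± 0.32 (adjusted p = 0.0372) after 1 h and 4 h of MeJA, -1.14 ± 0.32 (adjusted p = 0.0451) at 30 min after wounding and -1.48 or lower at 60 min (adjusted p = 0.0128), where both arrays were Absent. The calls were lost in 1, 6, 8 and 2 of 10 leave-one-out fits, at -1.37, -0.89, -0.97 and -1.28 (0.0686, 0.17, 0.195 and 0.0893).

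267135_at, described as identical to a CDK inhibitor, read 457, 237, 155, 168 and 128 in Col-0 and 275, 374, 165, 86.5 and 120 in Ri17. The genotypes went apart at 1 h of MeJA, with no call there at -0.25 ± 0.38, and the later MeJA arrays and all wounded arrays lay below both untreated ones. It fell (-1.15 ± 0.38, adjusted p = 0.0487) at 4 h of MeJA, and (-1.55 ± 0.38, adjusted p = 0.0274) at 30 min and (-1.51 ± 0.38, adjusted p = 0.0229) at 60 min after wounding. These calls were lost in 6, 4 and 3 of 10 leave-one-out fits, at -0.82, -1.08 and -1.19 (0.245, 0.184 and 0.127), and each was also lost without the filter on Present calls. The third inhibitor, 257483_at, was Present on the 2 arrays at 1 h of MeJA alone, at 155 and 178, and read between 5.1 and 114 on the others. It rose at 1 h of MeJA by at least 1.07 (adjusted p = 0.0361), a call lost in 7 of 10 leave-one-out fits (smallest without Col-0 untreated, 0.53). It met the filter on Present calls through those 2 arrays alone. The values that chose it for testing also made the call, so its p-value is no separate support.

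Of the 2 CDK regulatory subunits, which bind CDK complexes, 264070_at read 1346, 898, 889, 1793 and 1586 in Col-0 and 1296, 792, 860, 1503 and 1297 in Ri17. The 4 MeJA arrays were the lowest of the 10, and it fell at 1 h (-0.65 ± 0.17, adjusted p = 0.0242) and at 4 h (-0.59 ± 0.17, adjusted p = 0.0283), calls lost in 3 and 5 of 10 leave-one-out fits, with smallest differences of -0.58 (adjusted p = 0.0751) without Ri17 untreated and -0.52 (0.164) without Col-0 MeJA 4 h. The CDK-like kinase AT5G44290 read 546, 428, 245, 572 and 805 in Col-0 and 359, 503, 295, 703 and 884 in Ri17, highest at 60 min after wounding, where it rose by 0.93 ± 0.25 (adjusted p = 0.0318), a call lost in 9 of 10 leave-one-out fits (smallest without Ri17 untreated, 0.51, adjusted p = 0.108). AT3G05050, 264061_at and the ubiquitin carrier *UBC20* passed the threshold in none of the 4 contrasts.

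At 60 min, 2 of 22 cyclins were higher after wounding than after MeJA and 3 were lower, and of the 9 partners 3 were higher and 2 lower, where 14.2% of all probe sets were higher and 20.3% lower. The cyclin 262296_at was higher after wounding by 1.38 ± 0.19 (adjusted p = 0.00199) and 254526_at, like a fission yeast cyclin C, by 0.57 ± 0.17 (adjusted p = 0.0392). 253055_at was lower at -1.38 ± 0.19 (adjusted p = 0.00214), 246762_at at -1.28 ± 0.25 (adjusted p = 0.00854) and AT5G48640 at -0.71 ± 0.22 (adjusted p = 0.0461). Among partners, the kinases AT5G50860 and AT5G44290 were higher by 1.12 ± 0.25 (adjusted p = 0.0138) and 0.86 ± 0.25 (adjusted p = 0.0368) and 264070_at by 0.77 ± 0.17 (adjusted p = 0.0127). The inhibitor 257483_at was lower at -2.02 or less (adjusted p = 0.0033), since both wounded arrays were Absent, and 267135_at at -1.26 ± 0.38 (adjusted p = 0.0383). The calls of 262296_at and 253055_at were kept in every fit run. That of 257483_at was kept in every fit that tested it. This member met the filter on Present calls only through its arrays at 1 h of MeJA, the higher side here, so that is no separate support. With 1 array left out, the 10 calls became 5 and 3 without the Col-0 or Ri17 MeJA 1 h array, 4 without either array at 60 min after wounding, and 6 without either MeJA 4 h array.

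Between 1 h and 4 h of MeJA, limma called 0 cyclins and 0 partners at adjusted p under 0.05, and 4 of 31 at unadjusted p under 0.05, beside 4525 of 15382 probe sets. Without either untreated array, which this contrast does not use, 1 was called.

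For genotype averaged over the 5 conditions, limma called 0 of all 15382 probe sets at adjusted p under 0.05, and at unadjusted p under 0.05 it called 2 histones, 0 cyclins or partners and 951 probe sets in all. The median Ri17 minus Col-0 difference was -0.01 over histones, 0.04 over cyclins and partners and 0.00 over all probe sets. The genotype difference under wounding was also set against that under MeJA. Again limma called 0 probe sets at adjusted p under 0.05, and at unadjusted p under 0.05 3 of 37 histones and 3 of 31 cyclins or partners, beside 1483 of 15382 probe sets.

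Single arrays of a condition carry no test, and a member is counted where the log2 gap was 1 or more and its higher array was called Present. Among untreated plants, 1 histone and 4 cyclins were higher in Ri17 and 0 members lower, against 3.13% and 2.43% over all probe sets. The D cyclin 264697_at read 52.8 in Col-0 and 173.1 in Ri17, a difference of 1.71. The D3 cyclin 253270_at read 65.5, Absent, and 138, a difference of at least 1.07. Of those with no letter, 259290_at read 41.2, Absent, and 95.6, a difference of 1.21 by signal. 261765_at read 33.5, Absent, and 83.4, at least 1.15 by signal. The authors' deposited table gives both a smaller ratio, 1.0, with an increase call for 261765_at and no change called for 259290_at. The H3.1 probe set 257714_at read 122 and 255, a difference of 1.06, and the other 3 H3.1 probe sets also read higher in untreated Ri17, by less than 1.

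After 1 h of MeJA, 1 member differed by at least 1, where 0.8% of all probe sets were higher in Ri17 and 0.345% lower, and after 4 h 0 members, where 0.904% and 0.8% were. It was 253270_at, at 38.4, Absent, in Col-0 and 109 in Ri17. At 30 min after wounding, 2 histones and 1 cyclin were lower in Ri17 and 0 members higher, against 2.23% of all probe sets lower and 2.27% higher. The H2A.Z probe set 251846_at read 399 in Col-0 and 178 in Ri17, a difference of -1.16, and 260506_at read 135 and 65.2, a difference of -1.05. The H2A probe set 263264_at read 129 and 33.5, Absent, in that order.

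At 60 min after wounding, 1 histone was higher and 1 lower in Ri17, against 4.54% and 3.29%. *HIS1-3* read 38.8, Absent, in Col-0 and 272 in Ri17, a difference of 2.81 by signal. The authors' deposited table gives it a smaller ratio, 2.4, with an increase call. In the authors' deposited table *HIS1-3* is also called increased in Ri17 at 1 h and 4 h of MeJA, with ratios of 0.4 and 0.7. The linker histone 262840_at read 83.2 in Col-0 and 40.3, Absent, in Ri17.

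The change calls in the authors' deposited table compare both arrays of a condition from their probe pairs and also take in small changes. By the authors' deposited table, 11 of 37 histones were increased in untreated Ri17 and 2 decreased, where 1903 and 2093 of 15382 probe sets were. After 1 h and 4 h of MeJA, the authors' deposited table has 7 and 4 histones increased and 1 and 0 decreased, where 942 and 1162 probe sets were increased and 488 and 758 decreased. At 30 min after wounding, the authors' deposited table has 0 histones increased and 11 decreased, where 1636 and 894 probe sets were, and at 60 min 4 increased and 1 decreased, where 2136 and 1940 were. The median Ri17 minus Col-0 difference of the histones was 0.18 untreated, 0.06 and 0.09 after 1 h and 4 h of MeJA, -0.41 at 30 min and 0.11 at 60 min after wounding, where that of all probe sets lay between -0.04 and 0.03. With 1 array each, the genotype and the array cannot be told apart.

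Other genes of the cell cycle were counted from lists made in 2 ways. Of 88 genes named by symbol, only 6 had a named probe set that was tested, and groups were therefore also taken by words of the deposited descriptions, after those had been read. Of 15 probe sets for DNA replication enzymes, 5 and 1 fell after 1 h and 4 h of MeJA with 0 and 2 rising, and 1 and 5 fell at the wound times with 1 and 0 rising. The backgrounds for these and the following lists are, in the same order, 15.8%, 18.7%, 10.5% and 16.1% lower and 15.7%, 18.8%, 9.63% and 12.1% higher. The medians of the replication enzymes were -0.54, 0.00, -0.47 and -0.55. Between 1 h and 4 h of MeJA 6 of the 15 rose and 0 fell, against 6.69% and 7.93% of all probe sets, and 1 of 37 histones rose.

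The ribonucleotide reductase small subunit 257809_at, which makes deoxyribonucleotides, read 2562, 613, 922, 1286 and 873 in Col-0 and 2402, 824, 804, 949 and 751 in Ri17. It was highest untreated and fell in all 4 contrasts, from -1.80 at 1 h of MeJA to -1.17 at 30 min after wounding. The sliding clamp PCNA, 266297_at, read 348, 342, 643, 309 and 255 in Col-0 and 360, 233, 583, 174 and 244 in Ri17. It stood highest at 4 h of MeJA, at 0.79 ± 0.25 (adjusted p = 0.0431) from untreated and 1.11 ± 0.25 (adjusted p = 0.0275) from 1 h. The helicase subunit *MCM7* read 154, 32.9, 135, 197 and 82.1 in Col-0 and 211, 42.7, 159, 64.4 and 86.3 in Ri17, lowest at 1 h of MeJA, where the difference was -2.17 or lower (adjusted p = 0.0124) with the Col-0 array under the floor. With 1 array left out, the *MCM7* call was lost in 3 of 10 fits and the 4 h calls of PCNA in 7 and 4.

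Of 17 probe sets for nucleosome assembly and histone acetylation or deacetylation, 1 and 7 rose after 1 h and 4 h of MeJA with 3 and 1 falling, and 1 rose at each wound time with 3 and 4 falling. The putative histone deacetylase 252625_at, likened to a nucleolar enzyme of maize, rose most, by 2.52 ± 0.33 (adjusted p = 0.00126) at 4 h of MeJA, and read 227, 552, 1929, 346 and 214 in Col-0 and 352, 524, 1353, 279 and 344 in Ri17. The chaperone *ASF1A*, which hands H3 and H4 to assembly factors, fell (-0.87 ± 0.20, adjusted p = 0.0147) at 1 h of MeJA, lost in 3 of 10 such fits, while *ASF1B* passed the threshold in none of the 4 contrasts. *SIM*, a CDK inhibitor of another family, rose by 0.80 ± 0.24 (adjusted p = 0.042) at 1 h of MeJA, lost in 8 of 10. The remaining genes named by symbol, *BUB3.1* and *AUR1* of the mitosis list, are given by signal alone. *BUB3.1* read 113.4, 249.4, 243.5, 198.2 and 131.0 in Col-0 and 137.8, 275.4, 231.7, 136.3 and 110.7 in Ri17, highest on the MeJA arrays. *AUR1* read between 41.0 and 110.2. A list of 29 probe sets, called kinesins here, was taken by the word kinesin. It holds kinesin light chains beside motor proteins, some of which act in the spindle. Of the 29, 4 and 2 rose and 4 and 3 fell under MeJA, and 1 rose at each wound time, again with 3 and 4 falling. At 1 h of MeJA, the share of kinesins called each way and that of the assembly and acetylation genes called lower were close to the background. After wounding, the share of kinesins called lower was also close to it, at 10.3% against 10.5% at 30 min and 13.8% against 16.1% at 60 min.

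For the histone and for the cyclin with the largest mean change, the most similar probe sets were ranked by Pearson correlation of log2 signal over the 10 arrays, which share conditions and scaling, as a description. For the H2A 245750_at the first 5 were 254810_at, like a pectinesterase, at 0.982, 258724_at at 0.977, AT4G16447 at 0.967, 245152_at, like a mitochondrial carrier, at 0.966, and 250007_at, like a beta-amylase, at 0.966. For the cyclin 260506_at they were a GTP-binding protein, 261036_at, at 0.979, the ring finger gene AT4G32600 at 0.961, 245283_at at 0.96, *AGO7*, a gene of small RNA pathways, at 0.948, and AT5G61340 at 0.948. No histone or cyclin is among them.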

How the data were processed

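RNA of each of the 10 samples was hybridised to 1 ATH1 array, and GCOS made the values, per the submitters' processing notes (version not given in the sources used here). The deposited signal of each probe set is an intensity on a linear scale with a detection call and a detection p-value, per the file headers. Each array had been scaled by the authors to a trimmed mean of 500.1 (2% trimmed), as the deposited values show, and the median signal was 121.5 to 133.4. The authors' deposited table of Ri17 against Col-0 holds log2 ratios and change calls. The number of arrays limits the precision.

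Signals below 37.7, the 75th percentile of those called Absent, were set to it, and log2 was taken. limma 3.58.1 (R 4.3.3) was fitted with genotype and condition as additive terms, 4 residual degrees of freedom, two-sided, with Benjamini-Hochberg adjustment over 15382 probe sets and a threshold of 0.05. A difference is given as a bound where an array of the lower side was at or under the floor, or both were Absent. The genotype under wounding against MeJA was tested in a fit with 2 residual degrees of freedom. The fit was also run on simulated arrays with independent normal noise and known changes in probe sets well above the floor. That run cannot speak to batches, floored values or genotypes that respond differently. Tables and plots were made in Python 3.11.15 with pandas 2.3.3, NumPy 2.4.6 and Matplotlib 3.10.9.

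Members and lists were chosen with earlier results of these data known. Named were up to 8 highest and 8 lowest calls per contrast among histones and among cyclins with partners, the member of highest mean in each class, and up to 5 members each way in single pairs of arrays. That rule gives 79 of the 86 calls, and the other 7 were named after their values were seen. So were the members described as not past the threshold, and the genes outside the histones and cyclins, which were taken as examples. Other scalings, floors, detection filters, variance models and subsets of arrays were tried. Counting every word that starts with cyclin gave the same 92 members. No genome build was named in the files, so no position is given.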

Additional observations from a re-analysis of the deposited data

Results flagged for a closer look

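Between 1 h and 4 h of MeJA, 2 histones differed by the test of that difference itself. The H2A probe set 245750_at went down further, by -0.97 on the log2 scale (limma, adjusted p = 0.0399), and the H2B gene AT2G28720, probe set 263412_at, went up by 1.57 (adjusted p = 0.00891). Both directions held in each genotype.

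For 2 histones the genotypes moved opposite ways by at least 1 after wounding, which was not tested, since each genotype had 1 array per condition. The H2A probe set 263264_at differed from untreated at 30 min by 1.53 in Col-0 and by -1.18 in Ri17, a gap of -2.71, where both Ri17 arrays were Absent and the second was under the floor. *HIS1-3* differed at 60 min by -1.33 in Col-0, where the wounded array was Absent, and by 1.85 in Ri17, a gap of 3.18.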

How the results depend on the processing

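The 79 calls named by the rule kept their direction under every setting run. A call was lost in 260 of 790 fits that left out 1 array. Without the detection filter 36 of 79 were lost, with median centring 3, with quantile normalization 2, with the lower floor 7, with log2(signal + 16) 5, with an intensity trend and robust variance 3, with Present calls on at least 5 arrays 0 of 77, with MeJA and untreated arrays alone 8 of 35, and with wounded and untreated arrays alone 12 of 25. Of all 86 calls, 13 in 7 members were kept in every fit and setting. Losses under fewer arrays and without the filter go with fewer residual degrees of freedom and with more probe sets tested, and beyond that the cause was not tested.

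Without the detection filter, histones called were 5 at 4 h of MeJA, 3 and 7 at 30 and 60 min after wounding and 1 between 1 h and 4 h of MeJA, and cyclins and partners called were 5 at 1 h of MeJA and 1 and 2 at 30 and 60 min. All probe sets called were then 1198 between the MeJA times and 161 between the wound times. With wounded and untreated arrays alone, all probe sets called were 1467 at 30 min, 2628 at 60 min and 0 between them, histones 2 and 4, and cyclins and partners 3 and 4. With MeJA and untreated arrays alone, 1419 probe sets and 1 histone were called between the MeJA times. Trend and robust variance gave 4 histones there, and the lower floor gave 1 cyclin or partner between the wound times.

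Members differing by at least 1 between single arrays of the genotypes were 5 untreated, 1 at 1 h of MeJA and 2 at 60 min after wounding. They became 2 and 3 untreated with log2(signal + 16) and the authors' deposited table, 2 and 0 at 1 h with the lower floor and the authors' deposited table, and 4 and 1 at 60 min with the lower floor and log2(signal + 16).

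With 1 array left out, all probe sets called ran from 2467 to 4911 at 1 h of MeJA, 3149 to 5828 at 4 h, 1452 to 3143 at 30 min, 2781 to 3922 at 60 min, 224 to 2516 between the MeJA times, 0 to 673 between the wound times and 2083 to 5733 for wounding against MeJA. Histones ran from 2 to 11, 2 to 12, 1 to 6, 2 to 12, 0 to 3, 0 to 0 and 2 to 10, and cyclins and partners from 1 to 8, 1 to 7, 1 to 4, 1 to 7, 0 to 1, 0 to 0 and 3 to 10, in the same order. Genotype calls stayed at 0. Signals near the floor limit the low members, whose differences are bounds.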
